A study of Mus musculus with 28 samples.

Results

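The 10 genes described here, H19, Dlk1, Meg3, Peg3, Mest, Plagl1, Cdkn1c, Grb10, Ndn and Nnat, are imprinted regulators of growth. They were taken by symbol from the 50600 genes of the count table, through the Ensembl gene ID of each row with its version dropped, and all 10 had a row. No measured value entered that choice. Their read counts were followed over 8 groups, which are the combinations of lineage (stroma or luminal epithelium), reporter subset (GFP+ or tdTomato+) and treatment.

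The libraries came from 7 adult PdgfrαCre R26mTmG females on a C57BL/6 background, 4 of them untreated and 3 given estradiol and progesterone (E+P) in slow-release pellets. All groups carried the same transgenes. Cre in this model is driven constitutively from Pdgfra regulatory sequence, so a GFP+ cell had Cre at some time or descends from a cell that had it, while the remaining cells kept membrane tdTomato. Stromal (CD49f- EpCAM-) and luminal (CD49f low EpCAM+) cells were sorted by FACS after blood and endothelial cells had been gated out, and each mouse gave 1 library of each of the 4 sorted populations, 28 in all. The colour therefore records descent and not present Pdgfra expression, and GFP+ luminal cells are epithelial by their gate.

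In an imprinted gene, 1 parental copy is largely silent, as a rule under the control of DNA methylation set in the egg or the sperm. H19, Meg3, Cdkn1c and Grb10 are read mainly from the maternal copy in most mouse tissues, and Dlk1, Peg3, Mest, Plagl1, Ndn and Nnat from the paternal copy. As background, paternally expressed genes often favour growth and maternally expressed genes often restrain it. Many of these genes are abundant in the embryo and fall after birth, and in adults several of them are found in mesenchymal progenitors, among them Dlk1, known as Pref-1 in preadipocytes. The mice are inbred, so the counts do not tell which copy a read came from.

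Between 8623383 and 24583803 reads were counted on genes per library, and levels are given as CPM, which are counts scaled to a common library size with edgeR's TMM factors. A library listed at 0 has a limit of 3 counts, or 0.116 to 0.302 CPM depending on its depth, and this limit covers counting error only. The 10 luminal epithelial markers summed to between 4850 and 8199 CPM in the 14 luminal libraries and to at most 530 CPM in the 14 stromal libraries. The 12 fibroblast and adipocyte progenitor markers summed to between 36870 and 67391 CPM in GFP+ stroma and to between 2197 and 7562 CPM in tdTomato+ stroma. The tdTomato+ stroma held much signal of other cells: 12 skeletal muscle fibre markers summed to between 2870 and 26257 CPM there against at most 20.9 CPM in GFP+ stroma, and 12 pericyte and smooth muscle markers to between 7844 and 10974 CPM against at most 924 CPM. The 12 satellite cell markers were higher in tdTomato+ stroma too, at 1170 to 1719 CPM against 105 to 193 CPM. Other lists were higher in GFP+ stroma. The 12 Schwann cell markers were at 557 to 810 CPM there against 285 to 363 CPM in tdTomato+ stroma. The 10 mature adipocyte markers were at 805 to 1456 CPM against 176 to 525 CPM. In sorted bulk samples, fewer cells of a type and less RNA per cell cannot be told apart.

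The start regions of 4 members are shown first, because Plagl1 and Peg3 carry the hormone values of luminal cells, while Ndn and Meg3 were nearly absent from that lineage. Each is the RefSeq window (GRCm38.p6) from 250 bases before to 50 bases after a gene start, written 5′ to 3′ on the gene's strand with every CpG, the dinucleotide that imprinting methylates, in capitals. Methylation itself was not measured.
Plagl1, chr10:13090582-13090881, plus strand: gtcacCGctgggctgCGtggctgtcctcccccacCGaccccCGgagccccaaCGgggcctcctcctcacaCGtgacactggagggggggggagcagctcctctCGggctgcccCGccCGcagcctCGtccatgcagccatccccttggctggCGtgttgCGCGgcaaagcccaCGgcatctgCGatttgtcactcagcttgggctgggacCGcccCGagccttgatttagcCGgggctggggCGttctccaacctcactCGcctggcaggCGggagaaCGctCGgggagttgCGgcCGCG
Peg3, chr7:6730370-6730669, minus strand: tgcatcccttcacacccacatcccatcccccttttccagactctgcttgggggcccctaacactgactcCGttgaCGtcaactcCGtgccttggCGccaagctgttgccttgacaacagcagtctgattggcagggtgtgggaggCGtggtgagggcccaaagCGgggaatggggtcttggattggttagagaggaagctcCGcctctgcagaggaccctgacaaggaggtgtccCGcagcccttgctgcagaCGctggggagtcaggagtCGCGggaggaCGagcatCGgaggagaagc
Ndn, chr7:62348027-62348326, plus strand: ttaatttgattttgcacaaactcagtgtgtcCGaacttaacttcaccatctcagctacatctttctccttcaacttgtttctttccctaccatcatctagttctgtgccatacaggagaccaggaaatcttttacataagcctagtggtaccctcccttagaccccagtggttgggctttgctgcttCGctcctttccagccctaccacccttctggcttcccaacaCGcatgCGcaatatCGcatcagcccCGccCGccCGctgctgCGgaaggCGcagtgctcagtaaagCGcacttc
Meg3, chr12:109540746-109541045, plus strand: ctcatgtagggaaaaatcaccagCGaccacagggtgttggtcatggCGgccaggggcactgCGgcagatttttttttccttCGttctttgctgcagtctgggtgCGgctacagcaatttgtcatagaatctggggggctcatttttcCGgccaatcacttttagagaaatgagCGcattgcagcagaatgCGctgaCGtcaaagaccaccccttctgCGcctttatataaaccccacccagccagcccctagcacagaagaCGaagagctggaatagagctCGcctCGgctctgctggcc
Of the 10 members, 8 had a window in the RefSeq table. The Plagl1 window held 26 CpG, more than 83.1% of the 32851 windows of that table, whose median was 7. The Peg3 and the Meg3 windows held 13 CpG each and the Ndn window 11. The richest was the first of the 2 Grb10 windows with 45 CpG, above 98.1% of all windows. The core motif of estrogen receptor binding, AGGTCA, searched on both strands, was in neither the Plagl1 nor the Peg3 window, and 16.3% of all windows held it.

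Nearly all of these genes were read more in stroma than in luminal cells. Of the 10 members, 9 were higher in stroma than in luminal cells within GFP+ cells and 9 within tdTomato+ cells, and Nnat was the exception in both. Among these, Dlk1, Meg3, Mest and Ndn passed the filter on low counts only through their stromal libraries. For them a call could only go toward stroma, so the counts and medians given here lean that way. H19, Peg3, Plagl1, Cdkn1c and Grb10 passed the filter among luminal libraries as well. Differences between groups were tested with edgeR's quasi-likelihood F-test and called at an adjusted p of 0.01 over all genes tested. Over the 19569 genes of that fit, 52.5% were called in GFP+ cells (27.7% in the direction of stroma) and 59.3% in tdTomato+ cells (31.9% in the direction of stroma). The median log2 fold change of the 10 members was 6.59 in GFP+ cells and 4.61 in tdTomato+ cells, where the median of all genes was -0.03 and 0.06. With the members that had no luminal count set to a lower bound, 1 in GFP+ and 2 in tdTomato+ cells, the medians were 4.91 and 3.92.

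**Figure D1:**
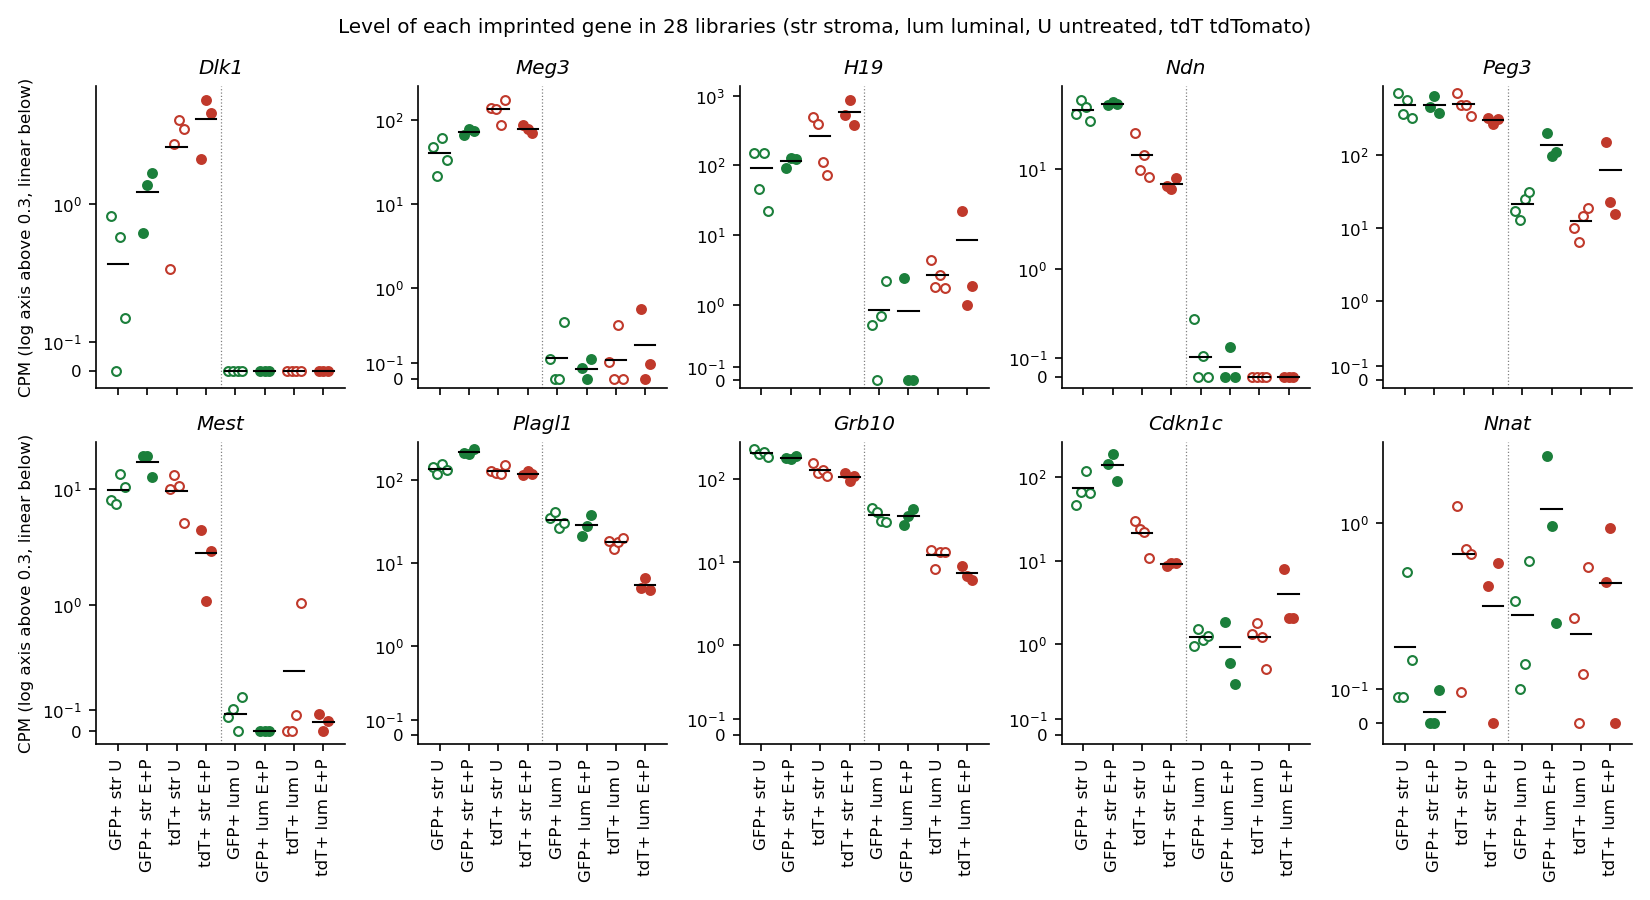
CPM of each imprinted gene (vertical axis, logarithmic above 0.3 CPM and linear below) in each of 28 libraries (points) of 8 groups (horizontal axis), with the group mean as a bar; green is GFP+, red is tdTomato+, open points are untreated and filled points E+P. Dlk1, Meg3, Ndn and Mest sit at or near 0 in luminal cells, while Peg3, Plagl1 and Grb10 stay above 4 CPM in all 14 luminal libraries.

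The members fell into separate kinds by what was left in luminal cells. Dlk1, which encodes a transmembrane inhibitor of adipocyte differentiation, had 0 counts in 14 of 14 luminal libraries. Taking 3 counts per library as the limit, its mean was at least 3.72-fold higher in GFP+ stroma and at least 16.7-fold higher in tdTomato+ stroma. Ndn, the growth suppressor necdin, had 0 counts in the 7 tdTomato+ luminal libraries and 10 counts in the 7 GFP+ luminal libraries together. Its mean was at least 64.3-fold higher in tdTomato+ stroma than in tdTomato+ luminal cells while in GFP+ cells the ratio of means was 491. That luminal mean, 0.0846 CPM with 4 of 7 libraries at 0, lies under the 0.198 CPM that 3 counts per library make on average, so the ratio is loosely fixed.

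Meg3, a long non-coding RNA of the same cluster as Dlk1, had 27 counts over the 14 luminal libraries. The ratio of its stromal to its luminal mean was 534 in GFP+ cells and 683 in tdTomato+ cells, with both luminal means, 0.102 and 0.16 CPM, likewise under that limit. Mest, a hydrolase-like protein of mesoderm and fat tissue, had 34 luminal counts in all, of which 27 came from the tdTomato+ library of untreated mouse 4. That library was at 1.05 CPM, against at most 0.157 CPM in the other 13 luminal libraries, and its 12 fibroblast and adipocyte progenitor markers summed to 34.4 CPM, the lowest of its group.

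H19, the long non-coding RNA next to Igf2, stood at 102 CPM in GFP+ stroma and 405 CPM in tdTomato+ stroma (means of 7 libraries), 122-fold and 79-fold above the luminal means. Cdkn1c, the cyclin-dependent kinase inhibitor p57, was 94-fold higher in GFP+ stroma than in GFP+ luminal cells and 6.68-fold higher in tdTomato+ stroma than in tdTomato+ luminal cells. The log2 fold changes of Cdkn1c were 6.64 ± 0.42 (SE) in GFP+ cells and 2.71 ± 0.36 in tdTomato+ cells (edgeR, adjusted p = 1.9e-12 and 4.45e-07).

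The last kind is expressed on both sides. Peg3, a zinc finger protein, was 6.9-fold higher in stroma in GFP+ cells and 12.1-fold higher in tdTomato+ cells. For Plagl1, a zinc finger transcription factor, the ratios were 5.5 and 10.1, and for Grb10, an adaptor that restrains insulin and growth factor signalling, they were 5.42 and 11.9. Nnat, a small membrane proteolipid, was close to the limit of detection, at no more than 2.31 CPM in any library. In GFP+ cells its log2 fold change (stroma minus luminal) was -2.60 ± 0.95 (edgeR, adjusted p = 0.0198), and in tdTomato+ cells it was 0.45 ± 0.81 (adjusted p = 0.642).

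Per kilobase of exon, which lets genes be compared, the order of the members changed between lineages. In untreated GFP+ stroma the highest were H19 at 37.7 ± 27.8 CPM per kb (SD, n = 4), Cdkn1c at 36.2 ± 15.1 and Peg3 at 35.9 ± 12.7, which do not differ beyond their spread. Grb10 at 22.9 ± 2.12, Plagl1 at 17.7 ± 2.08 and Ndn at 10.6 ± 2.15 followed. Mest at 2.48 ± 0.69 and Meg3 at 2.26 ± 0.952 did not differ beyond their spread, and Nnat and Dlk1 were at 0.121 and 0.0718 CPM per kb.

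In untreated tdTomato+ stroma H19 stood at 109 ± 83.9 CPM per kb and Peg3 at 37.0 ± 10.9. Cdkn1c was at 10.5 ± 3.85 there, below Plagl1 at 16.7 ± 1.88 and overlapping in spread with Grb10 at 14.2 ± 2.23. In untreated GFP+ luminal cells Plagl1 at 4.27 ± 0.856 and Grb10 at 4.05 ± 0.762 led and did not differ beyond their spread, ahead of Peg3 at 1.59 ± 0.59. In E+P-treated GFP+ luminal cells Peg3 led at 10.1 ± 4.13 CPM per kb (n = 3), above Grb10 at 3.93 ± 0.851 and Plagl1 at 3.73 ± 1.09.

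Within the stroma, the comparison of GFP+ with tdTomato+ cells asks how cells of the Pdgfra lineage differ from the rest. Ndn, Cdkn1c, Mest, Grb10 and Plagl1 were higher in GFP+ stroma and Meg3 and Dlk1 were lower, so 7 of 10 members were called, where 42.0% of the 17783 genes tested were called. H19, Peg3 and Nnat did not pass. The median log2 fold change of the 10 was 0.39 against -0.01 over all genes. Of the 4 maternally expressed members 2 were called higher and 1 lower, and of the 6 paternally expressed members 3 higher and 1 lower.

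The growth inhibitor Cdkn1c was the member with the largest rise. In untreated mice it stood at 46.8, 65.8, 118 and 64.7 CPM in GFP+ stroma and at 29.5, 23.8, 21.7 and 10.8 CPM in tdTomato+ stroma (mice 1 to 4). In E+P-treated mice it was at 141, 189 and 90.6 CPM against 8.68, 9.44 and 9.48 CPM (mice 1 to 3). The subsets did not overlap under either treatment. The log2 fold change, taken over both treatments, was 2.84 ± 0.26 (edgeR, adjusted p = 6.28e-07), and GFP+ cells were higher in 7 of 7 mice. Of the Cdkn1c exons, 30.7% lie opposite an exon of Gm44732, and the strand setting of the counting is not stated in the sources used here.

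Ndn differed in the same direction. Its GFP+ stromal libraries held 35.6, 48.9, 41.3 and 30.4 CPM untreated and 43.7, 46.9 and 44.0 CPM with E+P. Its tdTomato+ stromal libraries held 22.8, 9.84, 13.9 and 8.35 CPM untreated and 6.74, 6.27 and 8.14 CPM with E+P. The lowest GFP+ library was above the highest tdTomato+ library, and the log2 fold change was 2.08 ± 0.19 (edgeR, adjusted p = 8.18e-08).

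Grb10 showed a smaller and very even difference. In GFP+ stroma it was at 233, 201, 211 and 187 CPM untreated and 180, 175 and 191 CPM with E+P. In tdTomato+ stroma it was at 157, 120, 130 and 110 CPM untreated and 120, 95.3 and 108 CPM with E+P. The 2 sets of 7 libraries did not overlap, and the log2 fold change was 0.70 ± 0.09 (edgeR, adjusted p = 5.4e-06).

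Mest and Plagl1 were called over both treatments together, but their subsets overlapped in untreated mice. Mest was at 7.95, 7.44, 13.4 and 10.3 CPM in untreated GFP+ stroma and 9.88, 13.3, 10.5 and 5.05 CPM in untreated tdTomato+ stroma, a ratio of means of 1.01. After E+P it was at 19.2, 19 and 12.7 CPM in GFP+ stroma and 4.44, 1.09 and 2.94 CPM in tdTomato+ stroma, a ratio of 6.01. The groups overlapped in untreated mice and did not overlap with E+P, and the log2 fold change over both was 1.28 ± 0.28 (edgeR, adjusted p = 0.000809). Mest shares 23.1% of its exon bases with Copg2 on the opposite strand. Copg2 had a log2 fold change of 0.39 ± 0.22 in the same comparison (adjusted p = 0.14) and was lower in stroma than in luminal cells.

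Plagl1 was at 144, 118, 157 and 133 CPM in untreated GFP+ stroma and 131, 123, 118 and 151 CPM in untreated tdTomato+ stroma, with GFP+ higher in 2 of 4 mice. In E+P-treated mice it was at 215, 211 and 238 CPM in GFP+ stroma and 115, 131 and 118 CPM in tdTomato+ stroma, with no overlap. Its log2 fold change over both treatments was 0.46 ± 0.09 (edgeR, adjusted p = 0.000351).

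Meg3 went the other way in untreated mice. It stood at 47.8, 21.6, 61.1 and 32.9 CPM in untreated GFP+ stroma and at 138, 136, 85.9 and 173 CPM in untreated tdTomato+ stroma, which did not overlap. Its E+P libraries were at 66.1, 78.0 and 72.9 CPM in GFP+ stroma and 86.2, 77.0 and 69.9 CPM in tdTomato+ stroma, which overlapped. The log2 fold change was -0.92 ± 0.21 (edgeR, adjusted p = 0.0016), and with the mouse as a block, which pairs the libraries of a mouse, the adjusted p was 0.0143, so the call was lost. Without E+P mouse 1 it was 0.0153, and the call was lost as well.

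Dlk1 was low throughout the adult stroma. It was at 0.833, 0, 0.609 and 0.183 CPM in untreated GFP+ stroma and 0.38, 2.44, 3.45 and 3.01 CPM in untreated tdTomato+ stroma. After E+P, Dlk1 was at 0.649, 1.32 and 1.57 CPM in GFP+ stroma and 1.94, 4.69 and 3.85 CPM in tdTomato+ stroma. The tdTomato+ library was higher in 6 of 7 mice, and the log2 fold change was -2.02 ± 0.56 (edgeR, adjusted p = 0.00584). This call rests on few counts: its adjusted p was 0.0164 with the mouse as a block, and between 0.0148 and 0.0339 without untreated mouse 3, untreated mouse 4 or any 1 of the 3 E+P mice.

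**Figure D2:**
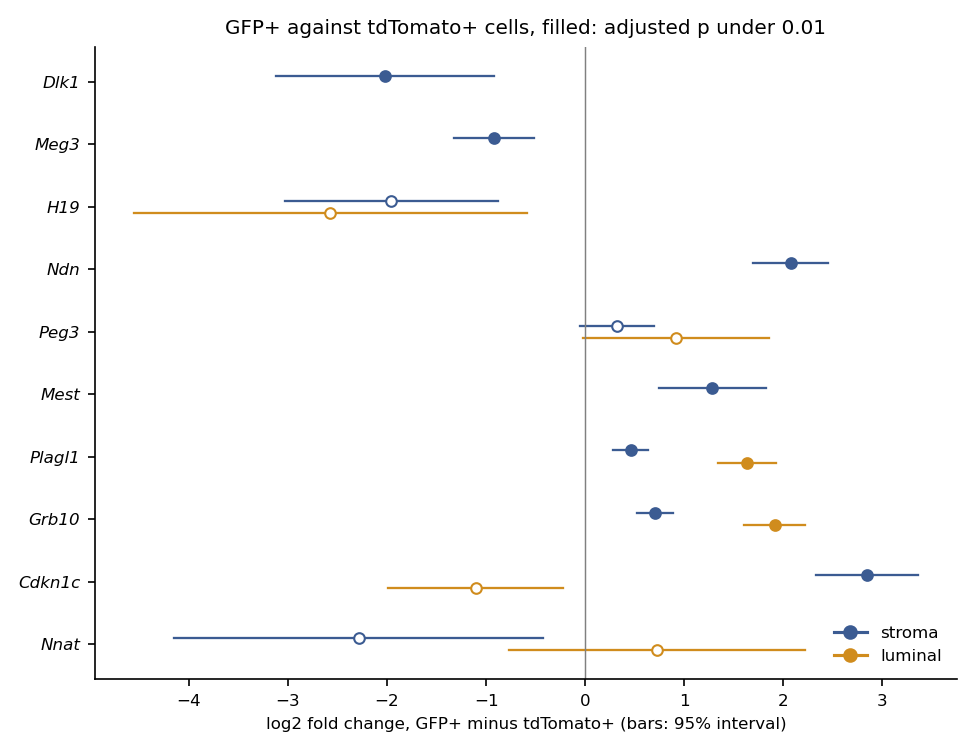
Log2 fold change between GFP+ and tdTomato+ cells (horizontal axis, GFP+ minus tdTomato+) for each member (vertical axis) in stroma (blue) and luminal cells (orange). Bars are 95% intervals by a normal approximation, narrower than the F-test implies. Filled points passed an adjusted p of 0.01. Cdkn1c had the largest value in stroma at 2.84 and a negative value, -1.11, in luminal cells; the 4 members below the luminal filter have no orange point.

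H19 ranged widely between stromal libraries. In tdTomato+ stroma it was at 489, 396, 112 and 72.5 CPM untreated and 529, 864 and 374 CPM with E+P. In GFP+ stroma it was at 153, 46.3, 150 and 22.0 CPM untreated and 91.7, 127 and 125 CPM with E+P. The tdTomato+ library was higher in 6 of 7 mice. Its log2 fold change of -1.96 ± 0.55 missed the threshold (edgeR, adjusted p = 0.0103), and leaving out 1 mouse gave an adjusted p between 0.00381 and 0.053. DESeq2, limma-voom, both other scalings and the fits without untreated mouse 3 or 4 called it. A fit with no low-count filter did too, but its adjusted p fell to 1.6e-52 (edgeR) at a log2 fold change of -1.93. That p is not relied on.

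Muscle signal moved with H19 among the tdTomato+ stromal libraries. The summed level of the 12 skeletal muscle fibre markers was 12421, 14926, 5074 and 2870 CPM in the untreated and 14311, 26257 and 7932 CPM in the E+P-treated tdTomato+ libraries. The library with the most muscle signal had the highest H19, and the 2 with the least had the lowest. In GFP+ stroma, where these markers summed to between 12.1 and 20.9 CPM, H19 still ranged from 22.0 to 153 CPM. The part of muscle signal in the difference of H19 between the subsets was not tested.

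**Figure D3:**
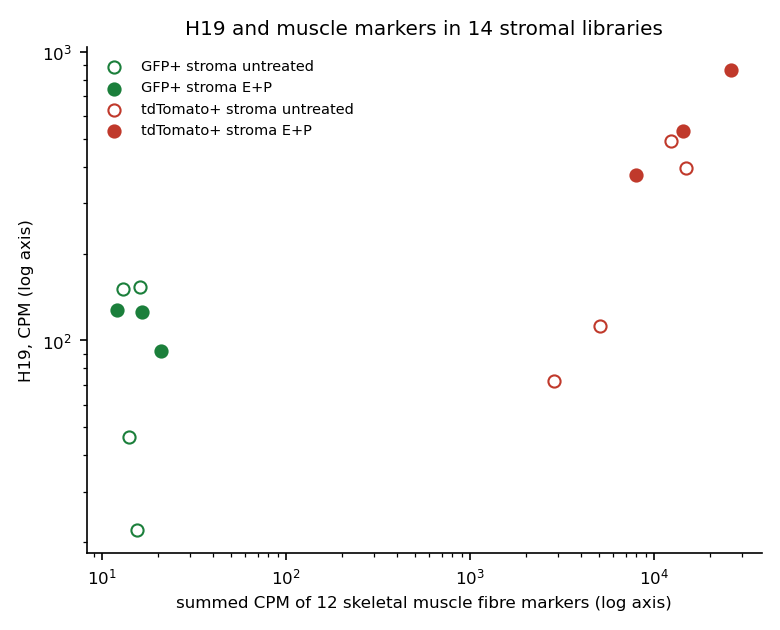
H19 in CPM (vertical axis, logarithmic) against the summed CPM of 12 skeletal muscle fibre markers (horizontal axis, logarithmic) in the 14 stromal libraries; green is GFP+, red is tdTomato+, open points are untreated and filled points E+P. The tdTomato+ libraries spread from 72.5 to 864 CPM of H19 as muscle signal goes from 2870 to 26257 CPM, while the GFP+ libraries spread from 22.0 to 153 CPM with muscle signal below 21 CPM.

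H19 also hosts a microRNA, and its mature arms are shown because the count table has a separate row for it. Both are RefSeq sequences (GRCm38.p6), 5′ to 3′, with the seed (bases 2 to 8) in capitals.
miR-675-5p: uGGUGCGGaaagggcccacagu
miR-675-3p: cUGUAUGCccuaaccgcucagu
The hairpin lies at chr7:142577064-142577147 on the minus strand, inside an exon of H19, which itself spans chr7:142575529-142578143. The row of Mir675 had 0 counts in 28 libraries, and the row of Mir770, inside Meg3, likewise had 0. Both hairpins lie wholly in exons of their host on the same strand, so a read there falls on both genes. How such reads were counted is not stated in the sources used here, and no conclusion is drawn from these 0 values. The row of Mir335, inside an intron of Mest, had 26 counts over 6 libraries. These libraries were made from long total RNA, so the rows carry no measure of mature microRNA.

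Peg3 was at 684, 361, 548 and 320 CPM in untreated GFP+ stroma and 683, 479, 480 and 331 CPM in untreated tdTomato+ stroma. With E+P it was at 452, 626 and 370 CPM against 318, 258 and 305 CPM. The untreated groups overlapped fully, and the log2 fold change over both treatments was 0.32 ± 0.19 (edgeR, adjusted p = 0.177). Nnat had a log2 fold change of -2.29 ± 0.95 (adjusted p = 0.051) on at most 13 counts in a stromal library, and GFP+ was the higher library in 0 of 7 mice.

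Among luminal cells, GFP+ and tdTomato+ cells were compared to ask how epithelial cells with a history of Cre differ from the others. Only 6 of the 10 members passed the low-count filter there, and Dlk1, Meg3, Mest and Ndn did not. Plagl1 and Grb10 were higher in GFP+ luminal cells, so 2 of 6 were called, where 34.7% of the 16538 genes tested were called. With the mouse as a block 4 of 6 were called, since Peg3 (higher) and H19 (lower) then passed as well.

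Grb10 separated the luminal subsets in every mouse. It was at 44.5, 40.8, 31.5 and 30.4 CPM in untreated GFP+ cells and 14, 8.27, 13.3 and 13.1 CPM in untreated tdTomato+ cells. In E+P-treated mice it was at 27.8, 36.2 and 43.2 CPM against 8.97, 6.88 and 6.18 CPM. No GFP+ library fell as low as a tdTomato+ library, and the log2 fold change was 1.91 ± 0.16 (edgeR, adjusted p = 1.18e-06).

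Plagl1 behaved alike in untreated mice and more strongly with E+P. It was at 35.1, 41.9, 26.3 and 30.4 CPM in untreated GFP+ cells and 18.4, 15.0, 18.1 and 19.9 CPM in untreated tdTomato+ cells. With E+P it was at 21.1, 28.2 and 38.2 CPM against 5.05, 6.62 and 4.66 CPM. The subsets did not overlap, and the log2 fold change was 1.63 ± 0.15 (edgeR, adjusted p = 2.49e-06).

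Peg3 was higher in GFP+ luminal cells in 7 of 7 mice, and the smallest p that sign flips within 7 mice can give, 0.0156, was reached (exact sign-flip test, two-sided). Its log2 fold change was 0.92 ± 0.48 (edgeR, adjusted p = 0.136), and 1.26 with the mouse as a block (adjusted p = 0.00721). H19 was at 0.507, 0, 0.685 and 2.20 CPM in untreated GFP+ luminal cells against 4.39, 1.83, 2.67 and 1.74 CPM in their tdTomato+ counterparts. The log2 fold change of H19 was -2.57 ± 1.01 (edgeR, adjusted p = 0.0526), and -2.99 with the block (adjusted p = 0.00479). The other members tested, Cdkn1c at -1.11 ± 0.45 (adjusted p = 0.0549) and Nnat at 0.72 ± 0.76 (adjusted p = 0.462), did not pass, although Nnat was higher in the GFP+ library of 7 of 7 mice (exact sign-flip test, two-sided, p = 0.0156).

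The luminal subsets also differed in epithelial kind. The 10 luminal progenitor markers summed to between 1709 and 4660 CPM in GFP+ luminal cells and to between 319 and 1314 CPM in tdTomato+ luminal cells. The 10 hormone-sensing luminal markers went the other way, from 190 to 2028 CPM in GFP+ and from 2350 to 5944 CPM in tdTomato+ luminal cells. Their part in the differences of Plagl1 and Grb10 was not tested. The 8 basal epithelial markers were higher in GFP+ cells, at 43.6 to 87.1 CPM against 13.8 to 22.7 CPM untreated and 119 to 137 CPM against 46.4 to 107 CPM with E+P. The 12 Schwann cell markers were higher too, at 225 to 339 CPM against 115 to 137 CPM untreated and 203 to 261 CPM against 46.0 to 64.2 CPM with E+P. Pericyte and smooth muscle markers stood at 155 to 241 CPM in GFP+ and at 102 to 185 CPM in tdTomato+ luminal cells. The part of these lists in Plagl1 and Grb10 was not tested either. The 12 fibroblast and adipocyte progenitor markers summed to between 25.6 and 139 CPM in GFP+ and between 34.4 and 145 CPM in tdTomato+ luminal cells, and Dlk1 was at 0 in both.

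E+P was compared with the untreated state within each sorted population. In the stroma no member was called in either subset. In GFP+ stroma 0.231% of the 17783 genes were called and in tdTomato+ stroma 0.124%, so little passed at all. Among the members, edgeR gave 0 calls in both. At an unadjusted p under 0.05 there were 4 of 10 in GFP+ stroma, all upward, and 5 of 10 in tdTomato+ stroma, all downward. Of all 17783 genes, 1429 in GFP+ and 2780 in tdTomato+ stroma were under that cut, in either direction. DESeq2 called 1 member in each and limma-voom 1 and 0. The median log2 fold change of the 10 members was 0.50 in GFP+ stroma and -0.76 in tdTomato+ stroma, against 0.00 and -0.03 over all genes.

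In GFP+ stroma Plagl1 came nearest. Its 3 E+P libraries, at 211 to 238 CPM, lay above the 4 untreated libraries, at 118 to 157 CPM, and the log2 fold change was 0.69 ± 0.13 (edgeR, adjusted p = 0.0138). DESeq2, limma-voom and a fit of the GFP+ libraries alone called it. The exact permutation test gave p = 0.0286, the smallest that 3 against 4 allows. Meg3 at 0.83 ± 0.29 (adjusted p = 0.331), Cdkn1c at 0.93 ± 0.34 (0.376) and Mest at 0.80 ± 0.38 (0.613) had positive values that did not pass.

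In tdTomato+ stroma Meg3, Cdkn1c and Mest had negative values, while Plagl1 hardly moved, at -0.11 ± 0.13 (edgeR, adjusted p = 0.714). Mest was lower in 3 of 3 E+P libraries than in all 4 untreated libraries, with a log2 fold change of -1.77 ± 0.41 (edgeR, adjusted p = 0.0536). Cdkn1c had -1.22 ± 0.37 (adjusted p = 0.125), Ndn -0.96 ± 0.28 (0.0985), Meg3 -0.78 ± 0.29 (0.209) and Peg3 -0.74 ± 0.28 (0.202). Ndn and Peg3 had no such change in GFP+ stroma, at 0.21 ± 0.26 and 0.02 ± 0.27. For Mest, Cdkn1c, Ndn and Peg3 the E+P and the untreated libraries did not overlap. Fibroblast markers were lower in these E+P libraries as well, at 2197 to 2799 CPM against 2878 to 7562 CPM, while muscle fibre markers ranged from 7932 to 26257 CPM against 2870 to 14926 CPM. Their part in these values was not tested.

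Whether E+P acted differently in the 2 stromal subsets was tested as an interaction, which 0.0450% of genes passed. No member did (edgeR), with 5 of 10 at an unadjusted p under 0.05, all with a more positive change in GFP+ cells. Of all 17783 genes, 1858 were under that cut, in either direction. The differences of log2 fold change were 2.57 ± 0.55 for Mest (adjusted p = 0.0655), 0.80 ± 0.18 for Plagl1 (0.0825), 2.15 ± 0.50 for Cdkn1c (0.114), 1.61 ± 0.41 for Meg3 (0.165) and 1.16 ± 0.37 for Ndn (0.266). DESeq2 called Mest, Cdkn1c and Plagl1, and limma-voom called 0.

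**Figure D4:**
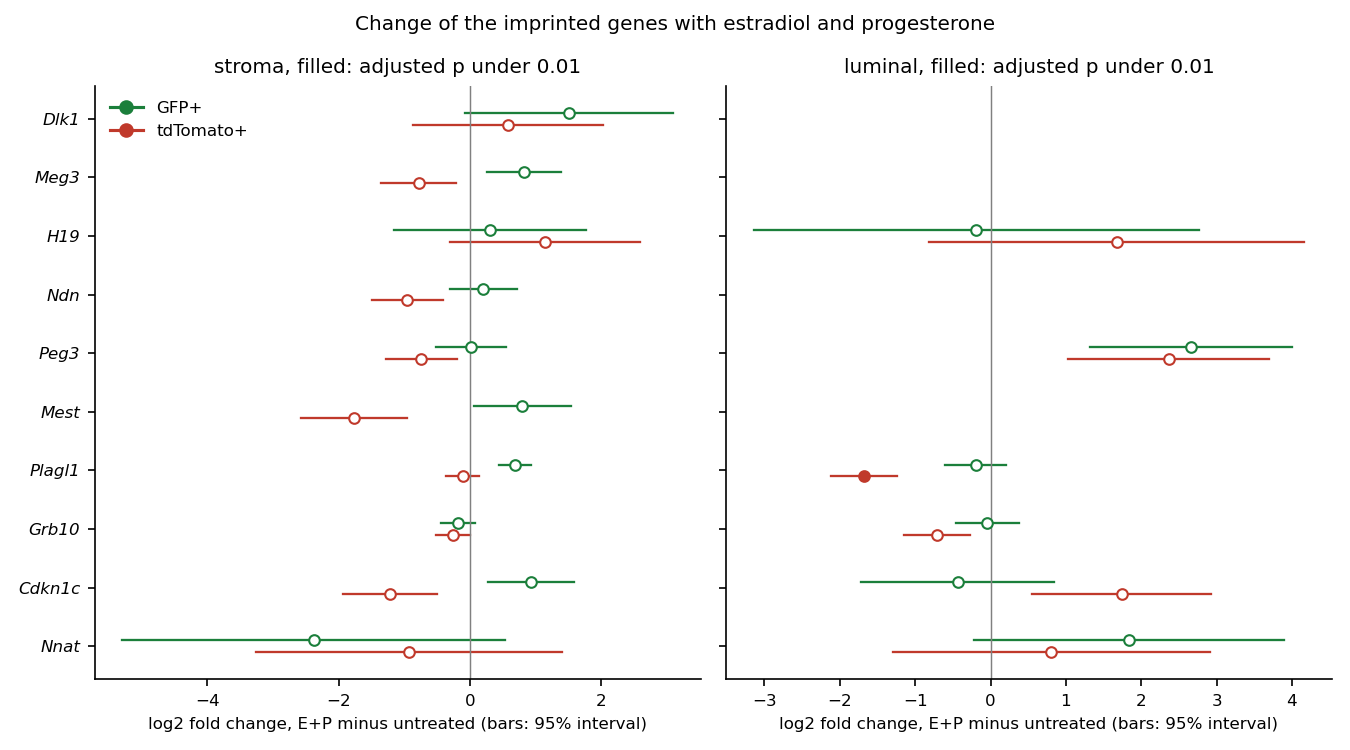
Log2 fold change between E+P-treated and untreated mice (horizontal axis, E+P minus untreated) for each member (vertical axis) in stroma (left) and luminal cells (right). Green is GFP+ and red is tdTomato+. Bars are 95% intervals by a normal approximation, narrower than the F-test implies. Filled points passed an adjusted p of 0.01. The 1 filled point is Plagl1 in tdTomato+ luminal cells at -1.68, and Peg3 had the most positive values in both luminal subsets, 2.66 and 2.36.

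In luminal cells E+P changed more genes, 5.96% of those tested in GFP+ and 14.1% in tdTomato+ cells. Of the 6 members tested, 0 were called in GFP+ luminal cells by edgeR. There 1 was at an unadjusted p under 0.05, as were 4940 of all 16538 genes. DESeq2 and limma-voom called 1 each, Peg3. In tdTomato+ luminal cells Plagl1 was called lower. Plagl1 fell from between 15.0 and 19.9 CPM untreated to between 4.66 and 6.62 CPM with E+P. The log2 fold change was -1.68 ± 0.22 (edgeR, adjusted p = 0.00015), and it stayed past the threshold in all 15 alternatives.

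In GFP+ luminal cells Plagl1 had a log2 fold change with E+P of -0.20 ± 0.21 (adjusted p = 0.572). The difference between the subsets, tested as an interaction that 2.27% of genes passed, was 1.49 ± 0.30 and was called (edgeR, adjusted p = 0.00914). It did not hold with the mouse as a block (adjusted p = 0.0189) or in limma-voom (0.016). Without each mouse in turn its adjusted p was 0.0345, 0.0062, 0.0265 and 0.0284 for untreated mice 1 to 4 and 0.012, 0.0308 and 0.0706 for E+P mice 1 to 3.

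Peg3 showed the largest fold of any luminal member with E+P. In GFP+ luminal cells it was at 16.8, 12.9, 24.4 and 30.5 CPM untreated and at 197, 96.3 and 109 CPM with E+P. The groups did not overlap, and the ratio of their means on the log2 scale was 2.67. The fitted log2 fold change was 2.66 ± 0.68 (edgeR, adjusted p = 0.0222), which missed the threshold, and the exact permutation test reached the smallest p it allows, 0.0286. Over the alternatives the adjusted p ran from 0.00205 to 0.0794, and a fit of the GFP+ luminal libraries alone, DESeq2, limma-voom and the fit without E+P mouse 1 called it.

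In tdTomato+ luminal cells 1 library carried most of the change. Peg3 was at 10.0, 6.39, 14.5 and 18.4 CPM untreated and at 149, 22.7 and 15.5 CPM with E+P. The library at 149 CPM, from E+P mouse 1, also had the highest H19 of the luminal libraries, 22.4 CPM against 0.983 and 1.85 CPM in the other 2, and the highest luminal Cdkn1c, 7.93 CPM against 2.05 and 2.09 CPM. The log2 fold change of Peg3 was 2.36 ± 0.68 (edgeR, adjusted p = 0.023), and without E+P mouse 1 it was 0.64 (adjusted p = 0.298). The same mouse had the highest GFP+ luminal Peg3.

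The markers of other cells went both ways in that library. Its 12 fibroblast and adipocyte progenitor markers summed to 60.6 CPM, against 84.3 and 94.7 CPM in the other 2 libraries of its group, and Dlk1 and Ndn were at 0. Its 8 basal epithelial markers summed to 107 CPM against 55.6 and 46.4 CPM, and its 10 mature adipocyte markers to 54.5 CPM against 16.2 CPM in each of the other 2. Its 12 pericyte and smooth muscle markers summed to 185 CPM against 127 and 117 CPM. The part of these cells in its Peg3, H19 and Cdkn1c was not tested. In GFP+ luminal cells the fibroblast markers were lower with E+P, at 25.6 to 32.7 CPM against 51.9 to 139 CPM. The mature adipocyte markers were higher there, at 8.49 to 25.3 CPM against 5.57 to 8.25 CPM. The part of either in the Peg3 of GFP+ luminal cells was not tested.

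Other luminal values moved beside these. The 12 proliferation genes summed to between 107 and 465 CPM in untreated and between 1634 and 1983 CPM in E+P-treated GFP+ luminal cells, and to between 73.6 and 210 CPM and between 300 and 446 CPM in tdTomato+ luminal cells. In tdTomato+ luminal cells the hormone-sensing markers were lower with E+P, at 2350 to 3581 CPM against 4100 to 5944 CPM. There the 10 endothelial markers were higher with E+P, at 221 to 241 CPM against 31.8 to 135 CPM, as were the adipocyte markers, at 16.2 to 54.5 CPM against 1.22 to 4.77 CPM. The basal markers there were at 46.4 to 107 CPM against 13.8 to 22.7 CPM, and the Schwann cell markers at 46.0 to 64.2 CPM against 115 to 137 CPM. In GFP+ luminal cells the luminal progenitor markers were lower with E+P, at 1709 to 1941 CPM against 2800 to 4660 CPM, and the basal markers higher, at 119 to 137 CPM against 43.6 to 87.1 CPM. Dcn, 1 of the fibroblast markers, rose in tdTomato+ luminal cells with E+P, with a log2 fold change of 2.96 ± 0.61 (edgeR, adjusted p = 0.00387). The 12 fibroblast and adipocyte progenitor markers together did not rise there. They summed to between 60.6 and 94.7 CPM (mean 79.9) with E+P, against 34.4 to 145 CPM (mean 96.2) untreated. The part of these cells and states in the values of Peg3 and Plagl1 was not tested. Grb10 had a log2 fold change with E+P of -0.04 ± 0.21 in GFP+ luminal cells (adjusted p = 0.926) and -0.71 ± 0.22 in tdTomato+ luminal cells (adjusted p = 0.03), and Cdkn1c had -0.43 ± 0.65 (0.708) and 1.74 ± 0.61 (0.0468), none of which passed. Without E+P mouse 1 the tdTomato+ value of Cdkn1c was 0.77 (adjusted p = 0.3).

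**Figure D5:**
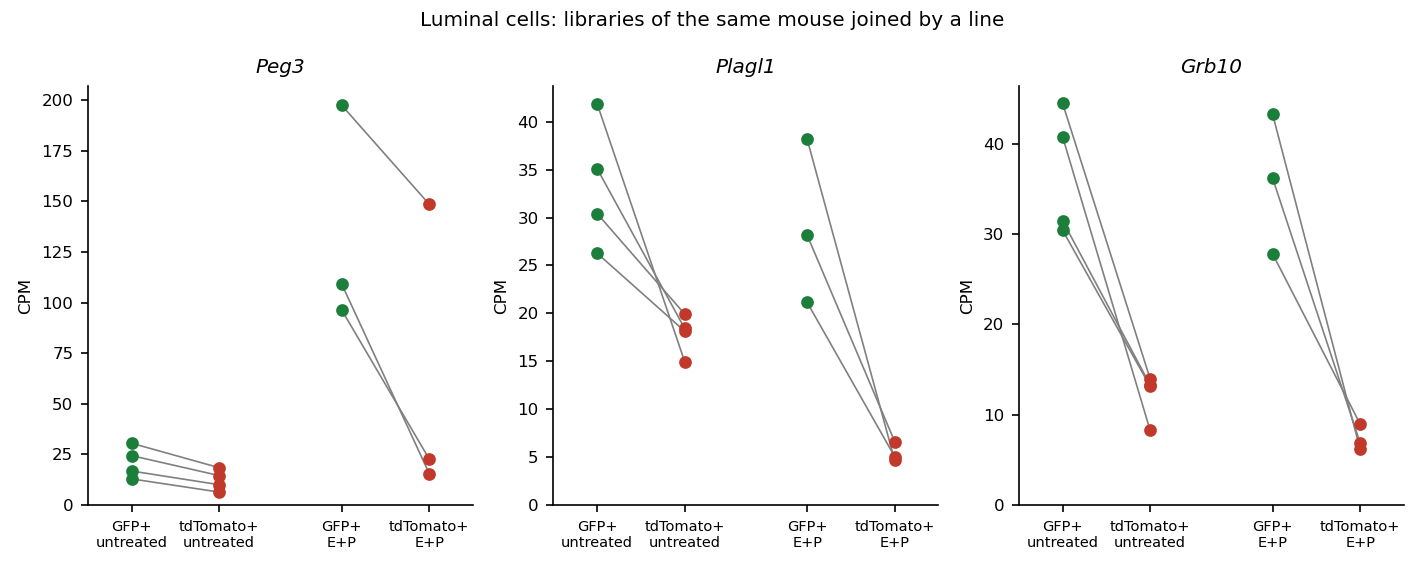
CPM (vertical axis, from 0) of Peg3, Plagl1 and Grb10 in GFP+ (green) and tdTomato+ (red) luminal cells of untreated and E+P-treated mice (horizontal axis), with the libraries of a mouse joined by a line. All 7 lines of each gene slope down from GFP+ to tdTomato+; Peg3 reaches 197 CPM with E+P, and Plagl1 in tdTomato+ cells sits between 4.66 and 6.62 CPM with E+P against 15.0 to 19.9 CPM untreated.

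The neighbours of the members at their imprinted clusters did not all follow them. Next to H19, the growth factor gene Igf2 had a mean of 4.09 ± 1.52 CPM in GFP+ stroma and 70.3 ± 22.0 CPM in tdTomato+ stroma (SD, n = 7), a log2 fold change of -4.10 ± 0.27 (edgeR, adjusted p = 9.42e-09). E+P did not bring Igf2 past the threshold in either subset (adjusted p = 1 and 0.399). In the cluster of Dlk1 and Meg3, the non-coding RNAs Rian and Mirg were at 67.8 ± 24.4 and 24.3 ± 9.57 CPM in GFP+ stroma and at 0.0709 and 0.0972 CPM in GFP+ luminal cells. Between the stromal subsets Rian had a log2 fold change of -0.16 ± 0.20 (adjusted p = 0.526) and Mirg -0.33 ± 0.26 (0.308), beside -0.92 for Meg3. Dio3 of that cluster was higher in GFP+ stroma, at 4.38 ± 1.09 (edgeR, adjusted p = 0.00325), the reverse of Dlk1 and Meg3.

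Next to Peg3, the zinc finger gene Zim1 was higher in GFP+ stroma, at 87.1 ± 40.7 CPM against 35 ± 20 CPM, with a log2 fold change of 1.53 ± 0.28 (edgeR, adjusted p = 0.000438). In GFP+ luminal cells Zim1 was at 0.646 ± 0.729 CPM. Next to Cdkn1c, the long antisense RNA Kcnq1ot1 had a log2 fold change of 0.31 ± 0.14 between the stromal subsets (adjusted p = 0.0799), where Cdkn1c had 2.84. Slc22a18 of that cluster was called in the direction of Cdkn1c there, at 4.10 ± 1.02 (edgeR, adjusted p = 0.0031). Phlda2 of the same cluster was lower in stroma than in luminal cells, with log2 fold changes of -4.49 ± 0.90 in GFP+ and -4.64 ± 0.81 in tdTomato+ cells (edgeR, adjusted p = 0.000143 and 2.73e-05). Next to Grb10, Cobl was lower in GFP+ stroma at 4.41 ± 2.15 CPM against 34.2 ± 7.31 CPM (log2 fold change -3.19 ± 0.20, adjusted p = 7.3e-10), the reverse of Grb10.

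A further list of 61 imprinted genes held 60 with a row in the table. In GFP+ against tdTomato+ stroma 14 of the 49 tested were higher and 12 lower, where 3671 and 3795 of all 17783 genes were. In luminal cells 3 of 39 were higher and 15 lower, where 2601 and 3144 of all 16538 genes were. In either direction 53.1% and 46.2% of the list were called, against 42.0% and 34.7% of all genes. The median log2 fold changes of the list were 0.06 and -0.38, against -0.01 and 0.00 over all genes. Counting only called genes whose higher subset averaged 10 CPM or more, the largest differences in stroma were those of Dcn, the collagen-binding proteoglycan decorin (4.2 ± 0.32), Begain (3.18 ± 0.28), Sgce (1.78 ± 0.11), Peg10 (1.58 ± 0.19) and Zim1 upward, and of Calcr, the calcitonin receptor (-6.45 ± 0.52), Zdbf2 (-4.56 ± 0.24), Igf2, Cobl and Nap1l5 (-2.37 ± 0.22) downward. Dcn is also 1 of the fibroblast markers and Calcr 1 of the satellite cell markers used here.

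In luminal cells Cd81, a tetraspanin, was higher in the GFP+ subset (1.45 ± 0.19), and Rasgrf1 (-3.14 ± 0.49), Pon3 (-2.87 ± 0.33) and Osbpl5 (-1.56 ± 0.12) were lower. Stroma was above luminal cells in 28 of 50 tested in GFP+ and 26 of 50 in tdTomato+ cells, with 6 and 11 in the reverse direction. Over all genes 27.7% and 31.9% were called in the direction of stroma, and 4849 and 5357 of 19569 in the reverse. E+P gave 0 calls among 49 in each stromal subset (edgeR). At an unadjusted p under 0.05 there were 4 up and 2 down in GFP+ and 2 up and 15 down in tdTomato+ cells. Of all 17783 genes, 1429 and 2780 were under that cut, in either direction. In luminal cells Gnas, which encodes the stimulatory G protein subunit, was higher with E+P in both subsets (0.40 ± 0.08 and 0.48 ± 0.08), and the non-coding RNA Peg13 was lower in both (-2.03 ± 0.19 and -1.45 ± 0.18).

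Factors that set or keep imprints were listed as well, 12 in all. The DNA methyltransferase Dnmt1, its partner Uhrf1 and the co-repressor Trim28 were called higher with E+P in GFP+ luminal cells, 3 of 10 tested. Over all genes 5.96% were called there. The 12 proliferation genes summed to between 1634 and 1983 CPM in these E+P libraries, against 107 to 465 CPM untreated. Their part in the 3 factors was not tested. In tdTomato+ luminal cells 0 of 10 were called (edgeR), against 14.1% of all genes. There 4 were up and 3 down at an unadjusted p under 0.05, beside 6446 of all 16538 genes. Between GFP+ and tdTomato+ stroma 2 of 11 were higher (Dnmt3l and the histone methyltransferase Setdb1) and 2 lower (Uhrf1 and Smchd1). That is 36.4% of those tested, against 42.0% of all genes. In GFP+ against tdTomato+ luminal cells 2 of 10 were higher (Dnmt1 and Setdb1) and 1 lower, the zinc finger protein Zfp57, which guards imprints in the embryo. Over all genes 34.7% were called in that comparison.

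For each member, genes with a similar pattern were sought over the 8 group means of log2 CPM, among 11384 genes that reached 10 CPM in a group. With 8 points set largely by the step between stroma and luminal cells, high correlations are common, and they are given as a description. Among the nearest to Ndn were Srpx2 (Pearson's r = 0.999), Tnfaip6 (0.998) and Rcn3 (0.998), and to Meg3 Gm37452 (0.998), Meox2 (0.997) and Vstm4 (0.996). For Cdkn1c they were Serinc1, Mitf and Dcn (0.993 each), for Grb10 Phactr2 and Atrnl1 (0.993 each), and for H19 Eif4e3 (0.994), Ginm1 (0.993) and Nfatc1 (0.992). For Plagl1 they were Tbkbp1 (0.992), Ubash3b (0.988) and Gli2 (0.986), for Peg3 Smc6 (0.989) and Mdfic (0.988), and for Mest 5033421B08Rik (0.993), Stx4a (0.991) and Gm43508 (0.99). Dlk1 had Gm37390 (0.987), Kcnab1 (0.984) and Sh2b3 (0.983), and Nnat, near the limit of detection, Snord82 (0.953), Atp5a1 (0.944) and Cenpa (0.935).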

How the data were processed

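Read counts per gene, as deposited by the authors without normalization, were used for 28 libraries. The labels describe a stranded total RNA kit for low input (SMARTer pico) on cells sorted by FACS, and the submitters' processing notes name STAR 2.5.2a and the build GRCm38.p5. RNA integrity ran from 1 to 10 over the samples per the labels, with no value for a single library. The annotation release and the strand setting of the counts are not given in the sources used here. Symbols, coordinates and exon lengths came from GENCODE M21, where 50376 of 50600 IDs were found. Of the 10 members, 9 had the same ID version.

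Counts were filtered with filterByExpr, scaled by TMM (factors from 0.833 to 1.23) and tested in edgeR 4.0.16 (R 4.3.3) by its quasi-likelihood F-test, with 1 coefficient for each combination of subset and treatment and all groups of a lineage in a fit, or all 28 libraries for stroma against luminal cells. This kept 10 members in the stromal fit, 6 in the luminal fit and 10 in the fit of both. Adjusted p are Benjamini-Hochberg over all genes tested, with calls under 0.01, the study's threshold. The standard error is the absolute log2 fold change over the square root of F, and a log2 fold change between subsets or lineages is the mean of the untreated and the E+P difference. The 95% intervals in the figures apply a normal distribution to that error, so they are narrower than the F-test implies. For Grb10 with E+P in tdTomato+ stroma the interval was -0.519 to -0.00275, yet the F-test gave an unadjusted p of 0.0639. Log2 CPM for correlations used a prior count of 2. Exact tests over mice were two-sided. The scripts were tested on simulated data with known changes.

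Libraries of 1 mouse were paired by the number and treatment in their titles. Deviations from the group means correlated within a mouse at a mean r between 0.0232 and 0.164 and at the lowest 0.0089, against -0.0725 to -0.0117 between mice. Because the deviations of a group cancel out, the values between mice follow largely from those within a mouse and are no separate comparison. Whether the mice were kept apart in any further way is not stated. The main fit had no term for the mouse and took the libraries of 1 mouse as independent. Its p-values measure the spread between libraries within groups and leave the pairing out. The alternative with the mouse as a block takes the pairing in. The alternatives were DESeq2 1.42.0 (size factors, Wald test), library size only, limma 3.58.1 (voom), dropping the low-count filter, calling at 0.05, blocking on the mouse (or on the number, for E+P), the groups compared alone, and leaving out each mouse. A fit of the groups compared alone is the same fit for GFP+ against tdTomato+ cells and for the interactions.

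All 10 members are named. Other imprinted genes are named where called, at most 5 per direction by log2 fold change, if the group with more reached 10 CPM on average. For the similar patterns the 3 nearest genes are named, except for items not reported here, and, beyond the rule, called imprint factors and neighbours of the members at their clusters. The members, the lists and the tests were chosen with earlier results of these data known.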

Additional observations from a re-analysis of the deposited data

Results flagged for a closer look

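In 37 groups of 4 libraries, 1 member and group at a time, the gap of the outermost library to its nearest neighbour was set against the range of the group (Dixon's test), and chance alone flags about 1 group in 20. Mest in untreated tdTomato+ luminal cells gave 0.931, through the library of mouse 4 at 1.05 CPM with 27 counts beside libraries with 0, 0 and 1 count. Grb10 in untreated tdTomato+ luminal cells gave 0.852, through the library of mouse 2 at 8.27 CPM beside 13.1, 13.3 and 14 CPM. The change of Plagl1 with E+P differed between the luminal subsets by 1.49 on the log2 scale (GFP+ minus tdTomato+, edgeR's quasi-likelihood test of the interaction, adjusted p = 0.00914), and this call did not hold with the mouse as a block.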

How the results depend on the processing

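Of 1213 values of single members under the 15 alternatives, 1134 kept their direction and their side of the threshold, 47 newly passed it, 16 no longer passed and 16 turned direction, none of these 16 being called. The 9 members above their luminal level in both subsets, Cdkn1c, Ndn, Grb10, Mest and Plagl1 between the stromal subsets, Plagl1 and Grb10 between the luminal subsets and the fall of Plagl1 with E+P in tdTomato+ luminal cells passed under each alternative run. Calls counted as follows where they moved by over 1.5 times, and the cause was not tested. At an adjusted p of 0.05, 1 member was called for E+P in GFP+ stroma, 1 in GFP+ luminal and 4 in tdTomato+ luminal cells. DESeq2's Wald test gave 1 in GFP+ stroma, 1 in tdTomato+ stroma, 3 for the interaction in stroma, 1 in GFP+ luminal and 2 in tdTomato+ luminal cells. Limma-voom gave 1 in GFP+ stroma, 1 in GFP+ luminal cells and 0 for the luminal interaction. Without the low-count filter it was 3 in GFP+ stroma, 6 in tdTomato+ stroma and 3 for the interaction in stroma. That fit tested more genes, yet gave far smaller adjusted p at nearly the same log2 fold change. For H19 with E+P in tdTomato+ stroma it gave 6.52e-10 at 1.17, beside 0.487 at 1.14 in the main fit (edgeR). Calls of that fit alone therefore carry little weight. Library size alone gave 2 in tdTomato+ luminal cells, and a fit of the compared groups alone 1 in GFP+ stroma and 1 in GFP+ luminal cells.

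When libraries were blocked by mouse, 4 members were called between the luminal subsets and 0 for the luminal interaction, Meg3 and Dlk1 were lost between the stromal subsets, and no other call changed. For E+P the number joins different mice (mean correlation -0.0436 to 0.0129) and the block changed no call, with Peg3 in GFP+ stroma at -0.094.

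Leaving out 1 mouse gave 5 to 7 calls between the stromal subsets, 2 to 4 between the luminal subsets, 9 to 10 for stroma against luminal GFP+ cells, 0 to 1 for E+P in GFP+ luminal, 1 to 2 in tdTomato+ luminal cells and 0 to 1 for the luminal interaction, which held only without untreated mouse 2. Values that turned ran, for E+P in GFP+ stroma, from -0.22 to 0.23 for Peg3 and from -0.021 to 0.65 for H19. For E+P in GFP+ luminal cells they ran from -0.18 to 0.083 for Grb10, from -6.98 to 0.76 for H19 and from -1.41 to 0.018 for Cdkn1c. For E+P in tdTomato+ luminal cells they ran from -0.90 to 2.20 for H19 and from -0.34 to 1.59 for Nnat. The luminal interaction of Peg3 ran from -0.0046 to 1.62, and Nnat in stroma against luminal tdTomato+ cells from -0.15 to 1.28.

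Scaling by library size alone shifts a log2 fold change by about the difference of the mean log2 TMM factors of the groups. With the factors of all 28 libraries this was -0.39 and -0.19 for stroma against luminal GFP+ and tdTomato+ cells. It was -0.11 and -0.19 for E+P in GFP+ and tdTomato+ luminal cells and 0.12 between the luminal subsets. Scaling by library size turned no member. It moved 10 of 80 group levels by more than their spread. Dlk1, Nnat and luminal H19, Meg3, Mest and Ndn rest on few counts, and depth limits what can be said of them.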
